A study of Danio rerio with 4 samples.

Results

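Solute carriers are membrane proteins that move sugars, amino acids, ions, vitamins, metabolites and lipids across the cell surface and the membranes of organelles. They are numbered by family, and each family tends to handle a related set of substrates, such as sugars in family 2, large neutral amino acids in family 43 and the metabolites of the inner mitochondrial membrane in family 25. In the embryo they feed growing tissues, take up yolk nutrients and, in liver, gut and kidney, recover sugars, amino acids and organic acids.

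The genes described here are the solute carriers measured on a zebrafish Affymetrix array in whole embryos at 36 hours post fertilisation (hpf). They were chosen by name: 130 genes had a symbol that starts with slc, a family number, the letter a and a member number. The red cell genes slc4a1a and slc25a37 were then left out, which leaves 128 of the 8793 genes named on the array. The members belong to 39 families. The symbols slc4a1ap and slc7a6os match the pattern, but these genes are named after a carrier and are not carriers, so they were kept apart from the transport classes. For a gene with several probe sets the brightest was used, and 17 members had more than 1.

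The glucose embryos were raised in 1% glucose in E3, the usual embryo medium, from 12 to 36 hpf, and the control embryos were not given this treatment. Each group had 2 biological replicates with 1 array each. No genotype or strain is given in the sources used here, and whether the replicates came from separate clutches is not given either. The p-values therefore reflect only the spread between these samples, drawn more from other probe sets than from the gene's own values. RNA came from whole embryos, so more cells of a type and more RNA per cell cannot be told apart in any value below.

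The array intensities are on a linear scale, with a median between 170.9 and 175.2 over all probe sets on the 4 arrays. The brightest of the 17 tag probe sets, designed to match nothing in the fish transcriptome, read 117.7, and this value is called the tag level. Of the members, 73 had a mean above the tag level and 55 did not. Of these 55, 44 were bright enough to be tested (an intensity of at least 32 on at least 2 arrays) and 11 were not. The 11 were slc2a9l1, slc2a11l, slc5a6b, slc5a8l, slc6a3, slc6a19b, slc12a8, slc15a1b, slc26a10, slc34a2a and slc52a3-1, and none of them read above 60.8 on any array. A member below the tag level can change without being seen here.

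Of the 117 tested members, 7 rose in glucose and 0 fell. They were slc27a2a, slc39a5, slc37a4a, slc43a2b, slc13a2, slc43a2a and slc3a2a, with fold differences between 1.41 and 2.08 (that of slc39a5 is set against a control mean below the tag level). A member is said to rise or fall where limma with an intensity trend, fitted over all 13628 tested probe sets, gave a Benjamini-Hochberg adjusted p under 0.10. With the trend, standard errors, intervals and p-values are moderated: they draw more on probe sets of similar brightness than on the gene's own arrays. The 7 make up 5.98% of the tested members, beside 1.29% of all tested probe sets called higher. Counted as the members are, by the brightest probe set of each named gene, 125 of 8164 tested genes were called higher and 53 lower. The filter on dim probe sets let a member pass through its brighter group alone, so these shares describe the list and are no test of it. Above the tag level the shares were 9.59% of 73 members and 1.87% of 9057 probe sets. The count of 0 lower members stands beside 0.712% of all tested probe sets called lower. At an unadjusted p under 0.05 the fit with the trend gave 12 higher and 2 lower members, with 6.22% of all tested probe sets higher and 5.26% lower. The fit without it gave 11 higher and 3 lower members, with 4.5% and 3.96% of all probe sets. Without the trend, limma called 0 of the 13628 probe sets, and the adjusted p of the 7 members then lay between 0.375 and 0.577.

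**Figure D1:**
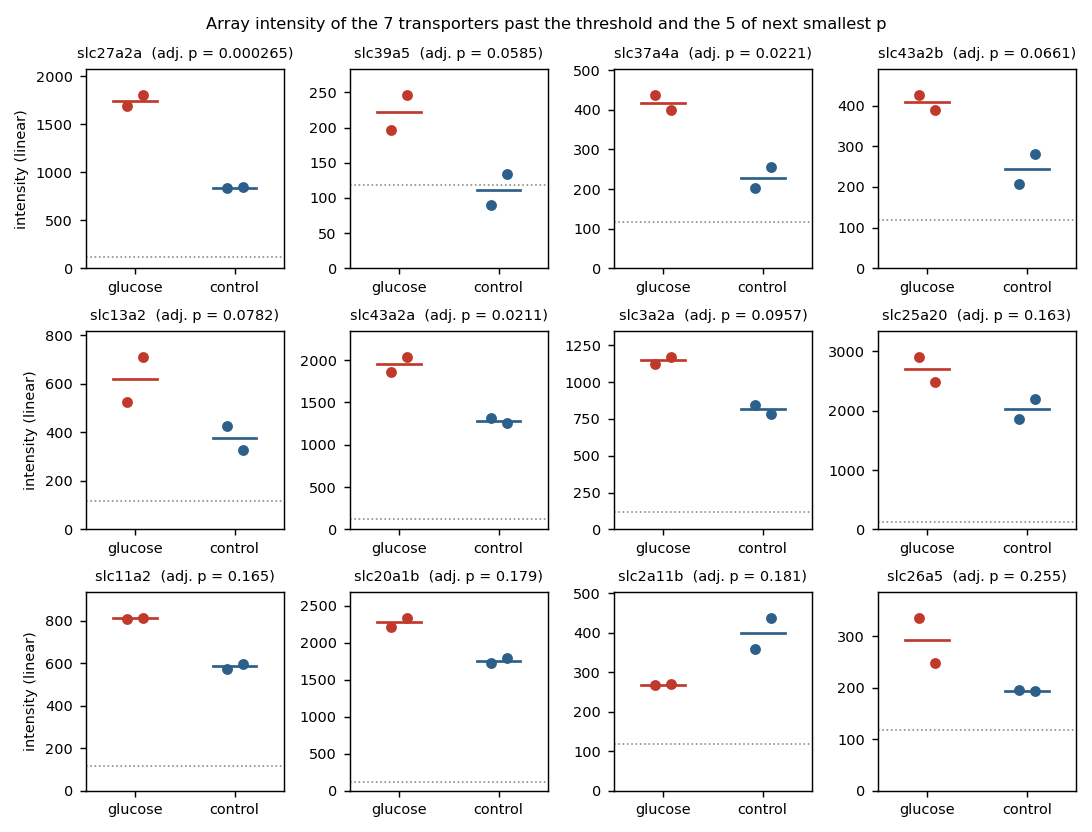
Intensity (linear scale, from 0) on each of the 2 glucose arrays (red) and 2 control arrays (blue) for the 7 transporters past the threshold and the 5 with the next smallest p; horizontal bars are group means and the dotted line is the tag level of 117.7. The glucose points lie above both control points in every panel except that of slc2a11b, where they lie below.

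The member with the smallest p was slc27a2a (NCBI gene 449925). Its mammalian counterpart is a fatty acid transport protein that also joins very long chain fatty acids to coenzyme A in liver and kidney. Its intensity was 1692 and 1803 on the glucose arrays, against 836 and 844 on the control arrays. The groups were far apart relative to the spread within each. The fold difference was 2.08 (log2 difference 1.06, standard error 0.13, n = 2 arrays each; adjusted p = 2.65e-04 by limma with trend). With any 1 of the 4 arrays left out, the log2 difference was at least 1.01.

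The slc37a4 carrier moves glucose 6-phosphate into the endoplasmic reticulum, where glucose 6-phosphatase releases free glucose, a last step of gluconeogenesis and glycogen breakdown. slc37a4a (NCBI gene 406465) read 437 and 399 in glucose embryos, against 202 and 256 in control embryos. The groups did not overlap, and glucose exceeded control by 0.88 on the log2 scale, standard error 0.19 (adjusted p = 0.0221 by limma with trend). With 1 array left out the difference lay between 0.71 and 1.05. It was 0.81 without glucose replicate 1, where the call was lost. A second, dim slc37a4a probe set read between 27.4 and 47.9, below the tag level on all arrays, and differed by 0.37. With the mean of both probe sets the difference was 0.62 and the call was lost (adjusted p = 0.315).

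The paralogue slc37a4b was not past the threshold. It read 575 and 749 in glucose embryos, against 701 and 658 in control embryos, and the control values lay inside the range of the glucose values. The log2 difference was -0.0506, with a 95% interval from -0.39 to 0.28. Within each array the log2 ratio of slc37a4a to slc37a4b was -0.39 and -0.91 in glucose and -1.80 and -1.37 in control. The ratio was higher on both glucose arrays, by 0.93 on average (exact permutation test, two-sided p = 0.333, the smallest that 2 against 2 arrays allow).

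Of the 7 genes that rose, 3 handle amino acids. slc43a2a and slc43a2b are co-orthologues of a carrier that lets large neutral amino acids such as leucine and phenylalanine cross the cell membrane by facilitated diffusion. slc43a2a (NCBI gene 393221) read 1854 and 2041 in glucose embryos, against 1315 and 1255 in control embryos. Glucose exceeded control by 0.60 on the log2 scale, standard error 0.13 (adjusted p = 0.0211 by limma with trend). Without glucose replicate 2 the difference was 0.53 and the call was lost.

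slc43a2b (NCBI gene 494042) read 425 and 390 in glucose embryos, against 206 and 281 in control embryos. It differed by 0.76 with a standard error of 0.19 (adjusted p = 0.0661). Neither gene's groups overlapped. With 1 array left out the difference of slc43a2b lay between 0.53 and 0.98. Its call was lost without glucose replicate 1, glucose replicate 2 or control replicate 1 (differences 0.69, 0.82 and 0.53). It was also lost with no filter on dim probe sets (limma with trend, adjusted p = 0.150). The ratio of the 2 genes overlapped between groups, and the difference between their responses was -0.16 (exact permutation test, two-sided p = 0.667).

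slc3a2a encodes the heavy chain (CD98 or 4F2hc) that carries light chains of family 7 to the cell surface. The gene (NCBI gene 796322) read 1126 and 1174 in glucose embryos, against 845 and 786 in control embryos. The log2 difference was 0.50, standard error 0.14, just inside the threshold (adjusted p = 0.0957). With 1 array left out the difference lay between 0.44 and 0.55. Dropping either glucose array removed the call, at a difference of 0.53 when replicate 1 was dropped and 0.47 when replicate 2 was. The call was lost with the replicate number as a block (limma with trend, adjusted p = 0.104). It was also lost with no filter on dim probe sets (0.106) and with quantile normalization (0.139). Its fold was also under 1.5. Its paralogue slc3a2b read 718 and 869 in glucose embryos, against 605 and 808 in control embryos, with overlapping groups and a difference of 0.18 (95% interval from -0.17 to 0.52). The responses of the pair differed by 0.32 and their ratio overlapped between groups (exact permutation test, two-sided p = 0.667).

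**Figure D2:**
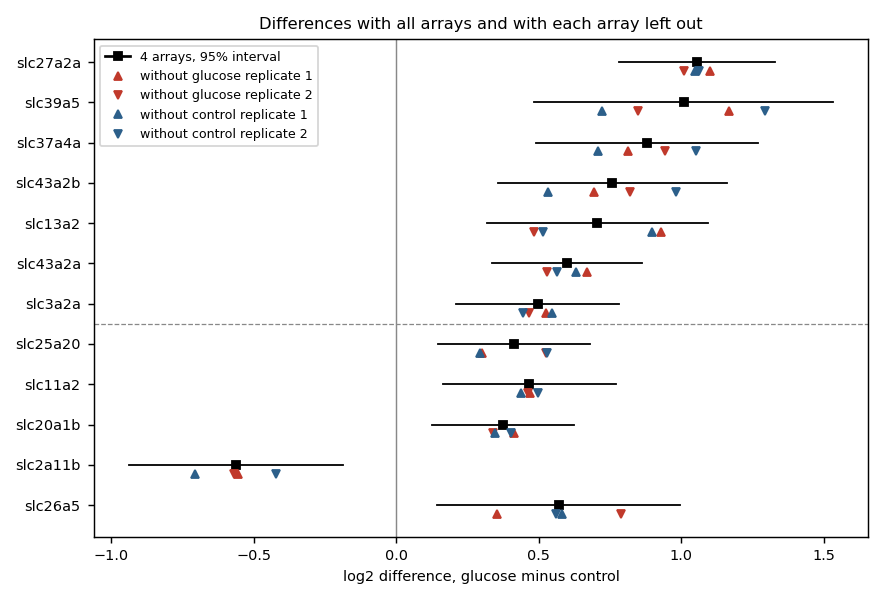
Log2 difference, glucose minus control, with its 95% interval from all 4 arrays (black squares) and with each array left out in turn (triangles), for the 7 genes past the threshold (above the dashed line) and the 5 with the next smallest p. The points of slc27a2a lie at 1.01 and above, and those of slc39a5 between 0.72 and 1.30.

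slc39a5 encodes a zinc importer that in the mouse sits on the blood-facing side of gut and pancreas cells. The gene (NCBI gene 561758) read 197 and 246 in glucose embryos, against 89.7 and 133 in control embryos. The mean of the control arrays, 111.5, was below the tag level, so the size of the difference rests on a control signal that does not exceed it. The mean over all 4 arrays was above the tag level through the glucose arrays and 1 control array. The log2 difference of 1.01 had a standard error of 0.25 (adjusted p = 0.0585). It lost the call without glucose replicate 2 (0.85, adjusted p = 0.329) and without control replicate 1 (0.72, adjusted p = 0.129), and with no filter on dim probe sets (adjusted p = 0.189).

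slc13a2 encodes a sodium-coupled carrier of succinate, citrate and other dicarboxylates, known from mammalian kidney and intestine. The gene (NCBI gene 406537) read 523 and 712 in glucose embryos, against 427 and 328 in control embryos. The spread within each group was wide, and the log2 difference of 0.71 had a standard error of 0.18 (adjusted p = 0.0782). Without glucose replicate 2 the difference was 0.48 and the call was lost. The call was lost with no filter on dim probe sets (limma with trend, adjusted p = 0.166) and with quantile normalization (0.149).

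The next members in order of p did not pass. slc25a20, the carnitine-acylcarnitine carrier that brings fatty acids into mitochondria for oxidation, read 2911 and 2490 in glucose embryos, against 1864 and 2193 in control embryos (log2 difference 0.41, adjusted p = 0.163). slc11a2, the divalent metal importer that brings iron into red cell precursors, read 808 and 812 in glucose embryos, against 574 and 598 in control embryos (0.47, adjusted p = 0.165). slc20a1b, a sodium-phosphate cotransporter, read 2220 and 2337 in glucose embryos, against 1723 and 1789 in control embryos (0.38, adjusted p = 0.179). For all 3 the groups did not overlap. The differences with 1 array left out ranged from 0.30 to 0.53, from 0.44 to 0.50 and from 0.34 to 0.41. slc25a20 passed when only probe sets above the tag level were tested (limma with trend, adjusted p = 0.0933).

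**Figure D3:**
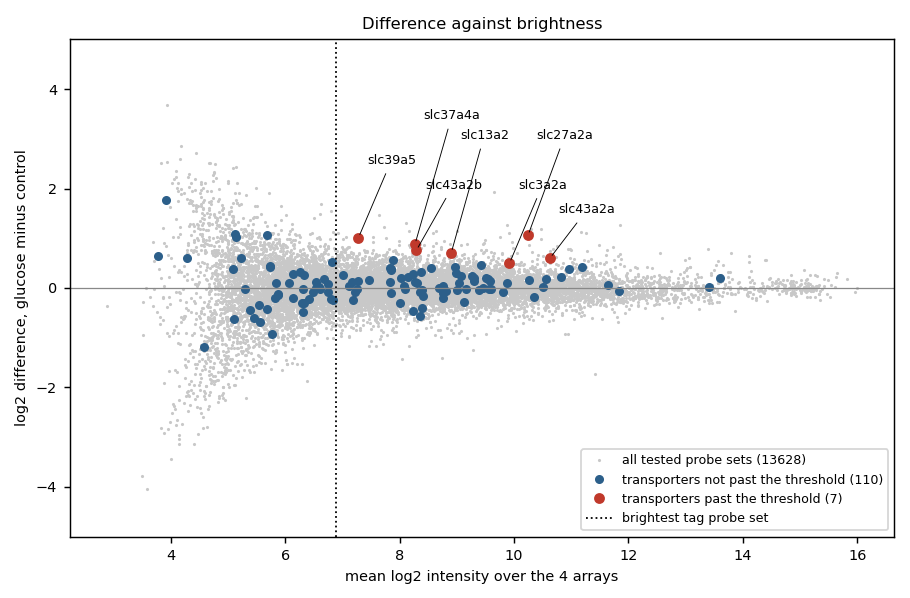
Log2 difference, glucose minus control, against the mean log2 intensity of the 4 arrays for all 13628 tested probe sets (grey), the 110 tested transporters without a call (blue) and the 7 with one (red, named); the dotted line is the tag level. The spread of the differences narrows toward bright probe sets, and all 7 named genes have a mean above the tag level.

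Over all 117 tested members the median log2 difference was 0.0922, against 0.006 over the 8164 tested genes of the array. The median intensity of all 128 members was 207.5 and 209.2 on the glucose arrays, against 175.5 and 196.3 on the control arrays. Between arrays of the same group, the median of the 117 tested members had a log2 SD of 0.14, pooled over both groups. That is a spread of a median level, not of a median difference, so it is no measure of this shift. Without control replicate 1 the median difference was 0.0191, and the shift was not tested. Both glucose arrays lay above both control arrays for 30 members (25.6%, against 20.7% of all tested probe sets) and below them for 18 (15.4%, against 20.3%). Among the 73 members above the tag level the counts were 25 (34.2%, against 23.3%) and 8 (11%, against 20.7%). The classes of transporters did not share 1 pattern, and they are described in turn.

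Families 2, 5 and 37 were grouped by family number and held 14 members, of which 10 were tested and slc37a4a was the 1 called. Over the array, 1.29% of all tested probe sets were called higher and 0.712% lower. Families 2 and 37 hold carriers of sugars and sugar phosphates, but the 3 members of family 5, slc5a6b, slc5a8l and slc5a12, are counterparts of mammalian carriers of vitamins or monocarboxylates. Of these 3 only slc5a12 was tested, with a mean below the tag level. The facilitative glucose transporters of family 2, which let glucose and related sugars cross the cell surface down their gradient, had 6 tested members and 0 calls (0 called without the trend, and 1 lower member, slc2a11b, at an unadjusted p under 0.05 with it). slc2a11b, which in medaka is needed for pigment cell development, read 268 and 270 in glucose embryos, against 360 and 438 in control embryos. Both glucose values were below both control values, and the difference of -0.56 did not pass (limma with trend, adjusted p = 0.181). The difference ranged from -0.70 to -0.42 with 1 array left out.

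slc2a3a, the counterpart of the neuronal glucose transporter GLUT3, read 261 and 360 in glucose embryos, against 297 and 234 in control embryos. Its groups overlapped, and the difference of 0.22 had a 95% interval from -0.21 to 0.64. slc2a15b, which in medaka acts in pigment cells, read 676 and 724 in glucose embryos, against 562 and 869 in control embryos. The control pair enclosed the glucose pair, with an interval from -0.38 to 0.38. The liver and islet transporter slc2a2, the intracellular slc2a8 and the broadly expressed slc2a10 all had means below the tag level, with intervals from -0.62 to 1.48, from -1.41 to 1.39 and from -0.77 to 0.74. Each of these 3 intervals includes changes of 1.5-fold in both directions. The glucose transporters slc2a1a and slc2a1b, and the sodium-coupled slc5a1, had no probe set assigned to them alone and were not analysed here. slc37a2, another sugar phosphate carrier, read 444 and 439 in glucose embryos, against 437 and 484 in control embryos, a difference of -0.0595.

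**Figure D4:**
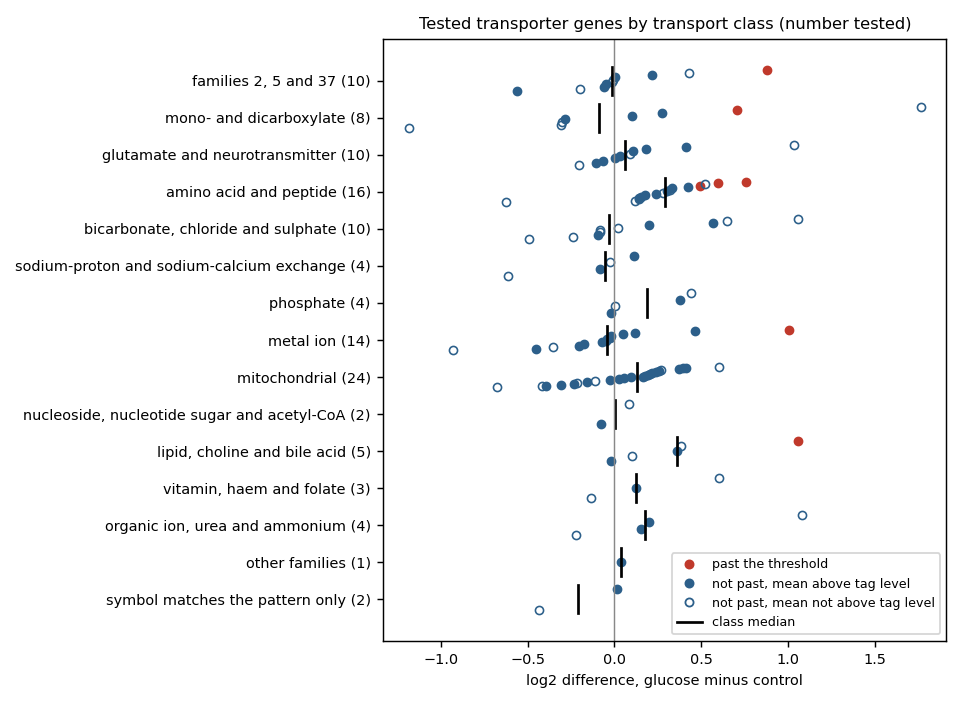
Log2 difference, glucose minus control, of each of the 117 tested members, grouped by transport class with the number tested in brackets; red points passed the threshold, filled blue points did not pass and have a mean above the tag level, open points have a mean that is not above it, and black bars are class medians. The amino acid class has 15 of its 16 points above 0, and the class median is 0.29.

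The amino acid and peptide class, families 3, 7, 15, 38 and 43, held 16 tested members, of which 15 had a difference above 0, 3 rose and 0 fell. Its median log2 difference was 0.29, the largest of the classes with at least 10 tested members, and lay between 0.21 and 0.33 with any 1 array left out. Leaving out control replicate 1 put 13 of the 16 above 0, and leaving out control replicate 2 put 14. All 11 members above the tag level had a difference above 0, from 0.14 to 0.76, while 3130 of the 6091 tested genes of that brightness on the array did. Of all tested probe sets 1.29% were called higher and 0.712% lower. These counts describe the class and carry no test. The single member below 0 was slc38a8b, at -0.62 and below the tag level.

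Within this class slc7a3a, a carrier of cationic amino acids such as arginine and lysine, read 564 and 595 in glucose embryos, against 437 and 426 in control embryos. The groups did not overlap, and the difference of 0.43 did not pass (adjusted p = 0.273). slc43a1a, a further carrier of large neutral amino acids, differed by 0.30 (adjusted p = 0.501) with groups that did not overlap. slc7a8a, a light chain that pairs with the heavy chain CD98, read 313 and 442 in glucose embryos, against 266 and 329 in control embryos (0.33, adjusted p = 0.562), and a second bright probe set gave 0.35. The sodium-coupled glutamine and neutral amino acid carriers slc38a2, slc38a4 and slc38a5b differed by 0.24, 0.14 and 0.14, with groups that overlapped for each. The lysosomal peptide and histidine carrier slc15a4 differed by 0.15.

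The class of glutamate and neurotransmitter carriers had 10 tested members and 0 calls (0 without the trend, and 0 at an unadjusted p under 0.05 in either fit), with a median of 0.0613. It was grouped by family number and also holds carriers of other substrates, such as slc1a4 and slc17a5. Its largest difference was that of slc6a19a.1, 1.03, with a mean below the tag level and a 95% interval from -0.55 to 2.62. The astroglial glutamate transporter slc1a2b read 3682 and 3423 in glucose embryos, against 3960 and 3499 in control embryos, a difference of -0.0682 (95% interval from -0.31 to 0.17). slc1a3a, another glial glutamate transporter, differed by 0.18 (adjusted p = 0.629). The neutral amino acid exchanger slc1a4 read 438 and 420 in glucose embryos, against 257 and 405 in control embryos, with 1 control array well below the other. Its difference was 0.41 (limma with trend, adjusted p = 0.451), 0.0831 without control replicate 1 and 0.74 without control replicate 2. slc18a3a, which loads acetylcholine into vesicles, slc32a1, which loads GABA and glycine, and slc6a11a, which takes up GABA, differed by 0.11, 0.00158 and 0.0305. The lysosomal sialic acid carrier slc17a5 differed by -0.11. The neuron list (elavl3, elavl4, snap25a, snap25b, gad1b, stmn1b and neurod1) had 7 of 7 members below 0 and 0 past the threshold (0 without the trend, and 1 lower at an unadjusted p under 0.05 in either fit). Its summed intensity was 12033 and 11482 in glucose embryos, against 13045 and 12794 in control embryos, and its part in these values was not tested.

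The mitochondrial carriers of family 25 were the largest class, with 24 tested members, 0 calls (0 without the trend; at an unadjusted p under 0.05, 1 higher and 0 lower with the trend, 0 higher and 1 lower without) and a median of 0.13. Of these 24, 15 had a difference above 0 and 9 below, beside 4164 and 4000 of the 8164 tested genes of the array. Leaving out 1 array gave medians from 0.0372 to 0.11, so the median with all arrays was higher than each of them. The groups did not overlap for 9 members with higher and 6 with lower values in glucose, while 20.7% of all tested probe sets were higher and 20.3% lower without overlap.

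slc25a3b, which brings phosphate into the mitochondrion for ATP synthesis, read 13214 and 13344 in glucose embryos, against 12408 and 10862 in control embryos. The difference of 0.19 did not pass (limma with trend, adjusted p = 0.476), and it ranged from 0.098 to 0.29 with 1 array left out. slc25a4, the ADP/ATP exchanger, read 11122 and 10876 in glucose embryos, against 11040 and 10528 in control embryos. Its groups overlapped, with a difference of 0.0288 and a 95% interval from -0.17 to 0.23. The malate-aspartate shuttle carriers slc25a11 and slc25a12 differed by 0.095 and 0.16, and the citrate carrier slc25a1a by -0.0266. slc25a33, a pyrimidine nucleotide carrier, and slc25a32a, a folate carrier, differed by 0.22 and 0.37, and both had groups that did not overlap. Their differences ranged from 0.067 to 0.36 and from 0.12 to 0.63 with 1 array left out. slc25a44b, a branched-chain amino acid carrier of mitochondria, differed by 0.39 (adjusted p = 0.468).

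At the other end of family 25, slc25a55b differed by -0.39 with groups that overlapped, and slc25a43 by -0.31 with groups that did not. slc25a10b, the dicarboxylate carrier, and slc25a26, which imports S-adenosylmethionine, differed by -0.23 and -0.16 with no overlap. The groups of slc25a10b were barely apart, at 157.3 on glucose replicate 2 and 157.4 on control replicate 1. Without glucose replicate 1 its difference was -0.0100. None of these 4 genes passed (adjusted p between 0.475 and 0.795).

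The metal ion class, families 11, 30, 31, 39 and 40, had 14 tested members, of which slc39a5 rose and 0 fell. Of all tested probe sets 1.29% were called higher and 0.712% lower. The class median was -0.0455, and 10 of the 14 differences were below 0, beside 4000 of the 8164 tested genes of the array. With glucose replicate 1 or control replicate 2 left out, 7 of the 14 were below 0. All 5 zinc exporters of family 30 had a difference below 0, from -0.45 to -0.0207, and none passed. Without control replicate 2, slc30a5 and slc30a9 were 0.0606 and 0.0359. slc30a7 was 0.0768 without control replicate 1, and slc30a1a 0.18 without glucose replicate 2. The dimmer slc30a9 probe sets differed by 0.11 and -0.14. The family therefore has no settled direction. The Golgi zinc exporter slc30a6 read 285 and 231 in glucose embryos, against 375 and 330 in control embryos. The groups did not overlap, and the difference of -0.45 was not past the threshold (adjusted p = 0.347).

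Among the zinc importers, slc39a7, which releases zinc from the endoplasmic reticulum, read 1291 and 1174 in glucose embryos, against 1383 and 1401 in control embryos, a difference of -0.18. Its second bright probe set went the other way, with 886 and 850 in glucose embryos, against 519 and 792 in control embryos (0.44, adjusted p = 0.333). slc39a9 was split in the same manner, with -0.21 on its brightest probe set and 0.56 on the other, so neither gene has a settled direction. Ferroportin, slc40a1, the iron exporter that carries maternal iron from the yolk to the embryo in zebrafish, read 833 and 911 in glucose embryos, against 968 and 868 in control embryos (-0.0735, 95% interval from -0.37 to 0.22). The copper importer slc31a1 differed by -0.0235.

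Some of the carriers of family 16, the monocarboxylate family, move lactate, pyruvate and ketone bodies with protons. slc16a3b, the counterpart of the lactate exporter MCT4, read 457 and 564 in glucose embryos, against 633 and 606 in control embryos. Both glucose arrays were lower, and the difference of -0.29 did not pass (adjusted p = 0.526). slc16a1b was below the tag level on all 4 arrays, and slc16a9b, a carnitine carrier, differed by 0.27 (adjusted p = 0.612). Basigin (bsg), a chaperone of lactate carriers of this family, read 8125 and 7347 in glucose embryos, against 8064 and 8447 in control embryos, a difference of -0.0951 (adjusted p = 0.784).

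The remaining classes had few members above the tag level. Of the lipid class, slc27a2a rose, slc27a1a, a fatty acid transport protein of muscle and fat in mammals, differed by 0.36 (adjusted p = 0.569) and slc10a7 by -0.0215. Of the anion and cation-chloride carriers, slc26a5, the gene of the motor protein prestin of the inner ear, read 336 and 248 in glucose embryos, against 196 and 193 in control embryos (0.57, adjusted p = 0.255). slc12a7b, a potassium-chloride cotransporter, and slc4a2a, a chloride-bicarbonate exchanger, differed by 0.20 and -0.0972. The sodium-proton exchanger slc9a7, the haem carrier slc48a1b, the nucleotide sugar carrier family member slc35a4, and slc22a31 and slc49a4 had differences from -0.081 to 0.20, each with overlapping groups. slc7a6os, which is not a carrier, differed by 0.0132.

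**Figure D5:**
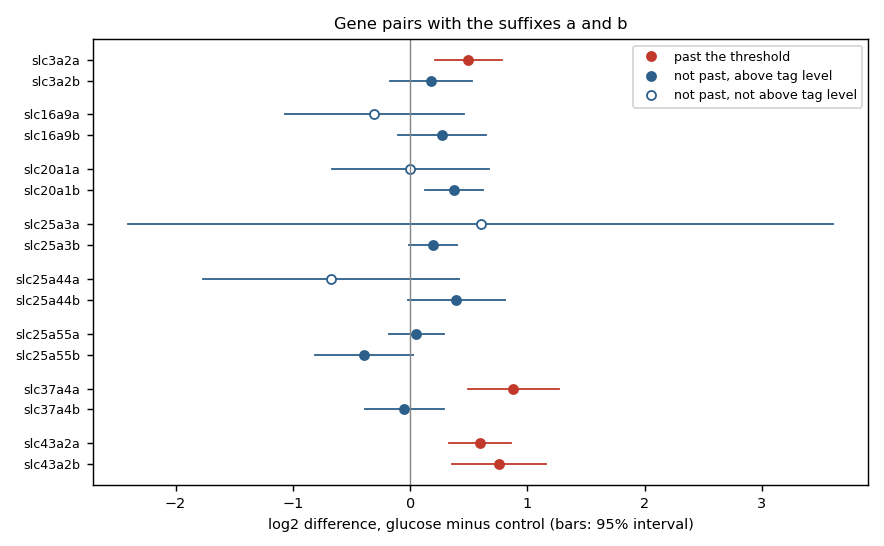
Log2 difference, glucose minus control, with 95% intervals for the 8 pairs of members whose symbols differ only in the suffix a or b and that were both tested; red marks genes past the threshold, and open points a mean that is not above the tag level. Both slc43a2 genes passed, as did slc37a4a and slc3a2a. The differences of slc37a4a and slc37a4b were 0.88 and -0.0506, and those of slc3a2a and slc3a2b 0.50 and 0.18; the difference within a pair gave exact permutation p = 0.333 for slc37a4, the smallest possible with 2 arrays a group, and p = 0.667 for slc3a2.

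Other membrane transport genes were set beside the solute carriers. Of 11 tested ABC transporters 0 passed (0 without the trend, and 0 at an unadjusted p under 0.05 in either limma fit), with a median of 0.00898. Sodium pump subunits build the sodium gradient that many solute carriers use. Of 12 tested, 0 passed (0 without the trend), with a median of -0.10. At an unadjusted p under 0.05 there were 2 higher and 1 lower with the trend, and 1 higher and 0 lower without. Of 4 tested aquaporins 1 rose, aqp12, which read 1446 and 1358 in glucose embryos, against 660 and 648 in control embryos. Of 2 tested organic anion transporters of the slco family, slco1d1 rose, with 318 and 309 in glucose embryos, against 163 and 212 in control embryos (0.76, adjusted p = 0.0785). Among the regulators, txnipa, whose mammalian counterpart lowers glucose uptake, rose, with 3231 and 3246 in glucose embryos, against 2484 and 2289 in control embryos. The ubiquitin ligase gene nedd4l rose as well, with both control arrays and the mean over all 4 arrays below the tag level. The list of partners and regulators had 8 tested members, of which 2 rose and 0 fell, with 5 differences above 0 and 3 below. Over all tested probe sets 1.29% were called higher, and the counts of these short lists carry no test.

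Several of the genes that rose, slc27a2a, slc37a4a, slc39a5 and slc13a2, are known from liver, gut or kidney in mammals. On these arrays 9 of 10 measured liver, gut and yolk markers had a difference above 0 and 6 rose, beside 1.29% of all tested probe sets called higher and 0.712% called lower. Their summed intensity was 152965 and 145031 in glucose embryos, against 124213 and 115357 in control embryos, so that the groups did not overlap; none of the markers was at 0. The 2 measured pronephros markers, cdh17 and pax2a, differed by 0.22 and 0.0816 and did not pass. Red cell markers had 7 of 7 above 0 and 4 past the threshold, with sums of 58432 and 54999 in glucose embryos, against 46797 and 43137 in control embryos. In the epidermis and ionocyte list 7 of 7 were below 0 and 4 fell, namely and1, and2, agr2 and cldnb. The keratin genes krt4 and krt5 and the sodium pump gene atp1b1b did not pass, with differences of -0.0481, -0.16 and -0.0989. Of 3 skeletal muscle markers all were below 0, and of 4 pigment cell markers 3 were above 0, with 0 past the threshold in either list (0 without the trend; at an unadjusted p under 0.05 1 muscle marker was lower with the trend). The part of these markers in the transporter values was not tested.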

How the data were processed

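The deposited table holds linear intensity values, 1 for each Affymetrix probe set on each array. Per the labels' protocols, Trizol was used for RNA extraction and biotin as the label. GCRMA is named in the submitters' processing notes. The deposited intensity values have the same mean on every array, between 500.15 and 500.16 after trimming 2% at each end, and a wide spread at low values, so the method that made them and any background subtraction stay unknown. Such values give large fold differences for dim probe sets.

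The 115 control probe sets among the 15617 on the array did not enter any test. Genes were named from the platform annotation for the 10795 probe sets with 1 gene there; 135 had several and 4572 none. All 128 members matched the RefSeq gene table of GRCz12tu by gene identifier, and no coordinates are given. Near-identical copies can share a probe set. Tests used log2 intensity and the 13628 probe sets that reached 5 on that scale on at least 2 arrays, with limma 3.58.1 in R 4.3.3 (lmFit, eBayes with trend, no covariates, Benjamini-Hochberg, threshold 0.10), so each probe set has 2 residual degrees of freedom. Precision is limited by there being 4 arrays. The code was tested on simulated arrays. Tables and plots used Python 3.11.15, pandas 2.3.3 and matplotlib 3.10.9.

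The members, classes, lists, the trend fit and the naming rule were chosen with earlier results of these data known, including that the fit without trend called nothing. The rule named every member past the threshold, the 10 largest and 10 smallest differences above the tag level, the brightest of each class, the 3 nearest on each side of the threshold, and 31 genes by name, of which 17 were measured. The other members named were chosen after their values were seen. Whether same-numbered arrays share more than a number is not labelled.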

Additional observations from a re-analysis of the deposited data

How the results depend on the processing

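The count of members higher in glucose was 7, and 0 were lower. With limma without an intensity trend the count was 0, with 0 probe sets called in all, against 273 with the trend. Without any filter on dim probe sets it was 3, with 174 probe sets called, and at an adjusted p under 0.05 it was 3, with 161. An unadjusted p under 0.05 with at least 1.5-fold gave 586 probe sets and 6 members. Leaving out 1 array gave between 2 and 11 higher members, 0 or 1 lower members (slc2a11b, without control replicate 1), and between 147 and 934 probe sets; glucose replicate 2 left out gave 2, glucose replicate 1 gave 4, control replicate 1 gave 6 and control replicate 2 gave 11. The 2 other filters, quantile normalization, median centring, robust eBayes and averaging probe sets per gene gave between 5 and 8 higher and 0 lower members, and the median difference of the tested members lay between 0.0191 and 0.12 under all settings run. slc27a2a was called under every setting run with all 4 arrays except the fit without trend.

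No shared source of same-numbered samples is labelled, and their deviations correlated with r = -0.0228 over 13628 probe sets. With the replicate block 6 members and 301 probe sets were called, and slc3a2a lost its call (adjusted p = 0.104).

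Differences that changed sign belonged to members without a call. With probe sets averaged per gene, slc39a7 was 0.13, slc39a9 0.18, slc4a2a 0.17 and slc2a15b -0.0527. With quantile normalization slc2a15b was -0.0201, slc32a1 -0.015, slc2a10 0.025 and slc2a8 0.00934, and with median centring slc2a15b was -0.00766 and slc32a1 -0.0075. With 1 array left out the ranges were -0.015 to 0.87 for slc2a2, -0.24 to 0.14 for slc37a4b, -0.14 to 0.22 for slc49a4, -0.0865 to 0.0395 for slc31a1, -0.19 to 0.19 for slc32a1, -0.75 to 0.13 for slc16a1b, -0.27 to 0.0559 for slc17a5, -0.90 to 2.10 for slc25a3a, -0.62 to 0.59 for slc2a10, -0.31 to 0.32 for slc2a15b, -0.0153 to 0.45 for slc2a3a, -0.76 to 0.74 for slc2a8, -0.0438 to 0.29 for slc48a1b, -0.0224 to 0.0489 for slc7a6os, -0.23 to 0.0683 for slc9a7, -0.035 to 0.096 for slc6a11a, -0.17 to 0.13 for slc10a7, -0.16 to 0.0211 for slc1a2b, -0.11 to 0.51 for slc22a31, -0.0321 to 0.39 for slc3a2b, -0.15 to 0.00499 for slc40a1, -0.0893 to 0.30 for slc18a3a, -0.069 to 0.35 for slc38a5b, -0.00549 to 0.0631 for slc25a4, -0.59 to 0.43 for slc35a4, -0.50 to 4.04 for slc13a1, -0.0646 to 0.0114 for slc25a1a and -0.13 to 0.0134 for slc37a2. The cause of these changes was not tested. The class medians, and the members named outside the naming rule, were put through the same settings after seeing the data. Of the 128 members, 55 had a mean that was not above the tag level.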

Other observations

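Members below the tag level gave the largest and least certain differences. slc13a1, a sulphate carrier, differed by 1.77 with a 95% interval from -2.24 to 5.78 and by -0.50 without control replicate 2, and slc13a5a, a citrate carrier, by -1.18 with an interval from -3.45 to 1.08. slc12a3, a sodium-chloride cotransporter, read 80.6 and 68.1 in glucose embryos, against 24.6 and 51.3 in control embryos. slc14a2, a urea carrier, read 49.9 and 50.9 in glucose embryos, against 28.0 and 20.3 in control embryos. The groups of these last 2 genes did not overlap, and neither passed (limma with trend, adjusted p = 0.45 and 0.607). A second slc12a3 probe set, too dim to be tested, went the other way. It read 12.7 and 7.29 in glucose embryos, against 40.4 and 17.5 in control embryos.

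For 15 members more than 1 probe set was tested. All probe sets of a gene had the same sign for 8 of them, and for 7 they did not. The second slc25a39 probe set, for a mitochondrial glutathione carrier linked to haem synthesis in red cells, read 196 and 239 in glucose embryos, against 136 and 119 in control embryos, a difference of 0.76 (adjusted p = 0.133), while the brighter one differed by 0.24. Both slc38a7 probe sets, for a lysosomal glutamine carrier, differed by 0.52 and 0.58, and neither passed. slc31a1 gave -0.0235 on its brightest probe set and -0.34 on the other.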
